A study of Mus musculus with 6 samples.

Results

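To examine the crypt base of the colon after loss of intestinal NSD2, the transcripts of 10 genes were followed in RNA sequencing of colon tissue. The genes were Lgr5, Ascl2, Smoc2, Axin2, Rnf43, Znrf3, Sox9, Ephb2, Lrig1 and Prom1, a list of intestinal stem cell genes and Wnt target genes named by symbol. All 10 were found among the 24517 genes of the count files, and all 10 passed the filter on low counts that left 16347 genes for testing.

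The samples were 3 colons of NSD2fl/fl mice and 3 colons of NSD2∆IE mice. NSD2fl/fl animals carry floxed Nsd2 alleles without deletion, and NSD2∆IE animals carry the same alleles deleted in intestinal epithelium by a Cre recombinase under the Villin promoter, on a C57BL/6J background. NSD2 dimethylates lysine 36 of histone H3, a mark of chromatin. Both groups were fed HFCD, a diet rich in fat and cholesterol, and the labels give 16 weeks for it. No group on normal diet was analysed here. The study's methods describe male littermates that entered the diet as young adults, and a longer feeding time than the labels. Villin is expressed by epithelial cells, so Nsd2 remains intact in the muscle, nerves, vessels and immune cells of the same tissue.

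The colonic epithelium is renewed from stem cells at the base of the crypts. Wnt ligands made around the crypt base bind Frizzled and LRP receptors, which stabilises beta-catenin and lets it act with TCF factors on target genes. Several targets feed back on the pathway. RNF43 and ZNRF3 are membrane ubiquitin ligases that remove Frizzled from the cell surface, and AXIN2 is a scaffold of the complex that degrades beta-catenin. LGR5 is a receptor for R-spondins, which counter RNF43 and ZNRF3, and ASCL2 is the transcription factor that sets the stem cell programme. SMOC2 is a secreted matrix protein of crypt base cells, SOX9 a transcription factor of crypt progenitors, EPHB2 a receptor that keeps cells ordered along the crypt, LRIG1 a restraint on EGF receptors, and PROM1 a membrane protein also known as CD133.

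Positions were taken from RefSeq on GRCm38.p6, which is the mm10 build named in the submitters' processing notes. All 10 genes are protein-coding and autosomal, and 4 of them lie on chromosome 11, Znrf3 at chr11:5276329-5444847, Rnf43 at chr11:87663087-87735539, Axin2 at chr11:108917828-108950783 and Sox9 at chr11:112782210-112787757. Lgr5 lies at chr10:115450314-115587780, Ascl2 at chr7:142966822-142969264, Smoc2 at chr17:14279490-14404790, Ephb2 at chr4:136647536-136836326, Lrig1 at chr6:94604529-94700298 and Prom1 at chr5:43993621-44102047.

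RefSeq windows of the 250 bases before a transcription start were at hand for 6 members, Axin2, Ascl2, Prom1, Rnf43, Lrig1 and Ephb2, in 8 windows. Lgr5, Smoc2, Znrf3 and Sox9 had no entry. The windows of 3 members are shown because these genes stand for the patterns described below, Axin2 as a Wnt feedback gene, Ascl2 as a stem cell gene and Prom1 as the member of widest range. They are Axin2 at chr11:108920099-108920348 (plus strand), Ascl2 at chr7:142969265-142969514 (minus strand) and Prom1 at chr5:44101737-44101986 (minus strand), each 5′ to 3′ on the strand of the gene. The Axin2 and Prom1 windows lie inside the gene spans given above, before a transcription start within the span, and the Ascl2 window lies outside its span. Capitals mark GC boxes (GGGCGG) and CCAAT boxes (CCAAT), searched on both strands.
Axin2: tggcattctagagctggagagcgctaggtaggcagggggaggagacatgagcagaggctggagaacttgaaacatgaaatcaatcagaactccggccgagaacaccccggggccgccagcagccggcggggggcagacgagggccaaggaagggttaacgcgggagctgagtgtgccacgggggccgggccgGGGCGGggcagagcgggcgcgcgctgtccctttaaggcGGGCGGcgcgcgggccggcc
Ascl2: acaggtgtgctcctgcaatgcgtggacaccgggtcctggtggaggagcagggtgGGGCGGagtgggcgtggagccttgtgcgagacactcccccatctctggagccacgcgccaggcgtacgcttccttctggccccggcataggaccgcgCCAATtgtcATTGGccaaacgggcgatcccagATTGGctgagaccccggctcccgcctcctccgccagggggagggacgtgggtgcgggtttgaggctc
Prom1: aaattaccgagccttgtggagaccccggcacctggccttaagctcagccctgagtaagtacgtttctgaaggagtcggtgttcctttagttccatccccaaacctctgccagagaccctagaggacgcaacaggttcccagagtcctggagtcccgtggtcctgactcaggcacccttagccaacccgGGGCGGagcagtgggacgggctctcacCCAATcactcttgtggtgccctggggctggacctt
The Axin2 window held 2 GC boxes and had 69.2% G and C, the Ascl2 window 1 GC box and 3 CCAAT boxes at 67.6%, and the Prom1 window 1 of each at 59.2%. A further Prom1 window and both Rnf43 windows held neither. GC boxes occurred in 4 of the 8 windows of members and in 32.7% of the 32851 windows of this length in the table, and CCAAT boxes in 4 of the 8 and in 33.8%. The TCF motif (CTTTGAT or CTTTGAA, both strands) occurred in 7.48% of all windows and in 0 of the 8 windows of members. Motifs bound by posterior HOX and CDX factors (CAATAAA or CCATAAA, both strands) occurred in 6.51% of all windows and also in 0 of the 8. These letters are absent from these windows only.

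Library totals ranged from 38041832 to 38604680 counts, and each member had from 170 to 29675 counts in a library, so counting error was small for all 10. The targeted gene was checked first. Nsd2 had 47.8, 59.1 and 68.9 CPM (counts scaled to the library by TMM factors) in NSD2fl/fl and 24.5, 23.1 and 27.4 CPM in NSD2∆IE, lower in every NSD2∆IE library. The fitted log2 ratio of NSD2∆IE to NSD2fl/fl, the scale of all differences below, was -1.23 (SE 0.159, edgeR adjusted p = 0.302). The sex-linked genes went against the stated sex of the animals. Xist had at most 4 counts in the NSD2fl/fl libraries and at least 21217 in the NSD2∆IE libraries, whereas 4 Y-linked genes together had at least 5058 counts in NSD2fl/fl and at most 1 in NSD2∆IE. Genotype and this male against female pattern cannot be told apart here. Libraries also differed along another axis that crossed the genotypes. Hoxb13, a homeobox gene of the distal end of the gut, had 365, 340 and 310 CPM in NSD2fl/fl replicates 1 and 3 and NSD2∆IE replicate 1, and 0.706, 4.97 and 26.2 CPM in NSD2fl/fl replicate 2 and NSD2∆IE replicates 2 and 3. The first principal component of all genes but the 10, with 51.0% of variance, divided the libraries in the same way. The labels give the tissue as colon and name no segment. The former 3 libraries are called Hoxb13-high below and the latter 3 Hoxb13-low.

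Levels of the 10 genes were compared per gene length, as the deposited FPKM, in which the count is divided by gene length and library size. The gene length implied by count and FPKM ran from 1612 bases for Ascl2 to 14366 for Lrig1, so the order rests on these lengths. Prom1 stood highest, with a median of 41.9 FPKM over the 6 libraries and a range from 17.5 to 88.2 FPKM. Smoc2 followed with a median of 15.1 FPKM, Lrig1 with 11.5, Sox9 with 9.27, Axin2 with 7.84, Ephb2 with 7.63 and Rnf43 with 7.59 FPKM. The lowest medians were those of Ascl2 (3.99 FPKM), Lgr5 (2.38 FPKM) and Znrf3 (1.80 FPKM). Every gene in this order overlapped the next in its range over the libraries. Within single libraries, Prom1 stood above Smoc2, Sox9 above Axin2, Rnf43 above Ascl2 and Ascl2 above Lgr5 in 6 of 6, while Axin2 and Ephb2, and Ephb2 and Rnf43, kept their order in 3 of 6. The stem cell markers Lgr5 and Ascl2 were thus measured in every library. Olfm4, a stem cell marker of the small intestine, had between 1 and 17 counts in a library and was not tested.

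No member passed the test between NSD2∆IE and NSD2fl/fl. In the edgeR quasi-likelihood test 0 of the 10 had an adjusted p under 0.05 and 0 had an unadjusted p under 0.05, against 0.0306% and 11.1% of all genes tested. The 5 genes behind the former share were Xist and the 4 Y-linked genes, so no autosomal gene passed the adjusted threshold in edgeR. For the 10 members, DESeq2 and limma on log2(FPKM + 1) also gave 0 adjusted p-values under 0.05. Over all genes DESeq2 gave 491. A looser threshold follows the study and asks for an unadjusted p under 0.05 together with a log2 ratio beyond 0.32 in size. There, 0 members passed in either direction, where 8.05% of all genes were higher in NSD2∆IE and 2.21% lower. The groups overlapped for all 10, whereas 18.7% of all genes tested did not overlap. The fitted log2 ratios lay between -0.08 and 0.45, 6 above and 4 below 0, with a median of 0.08 beside -0.04 over all genes tested. In bulk tissue a level depends on the share of cells that express the gene and on the RNA in each, which cannot be told apart.

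**Figure D1:**
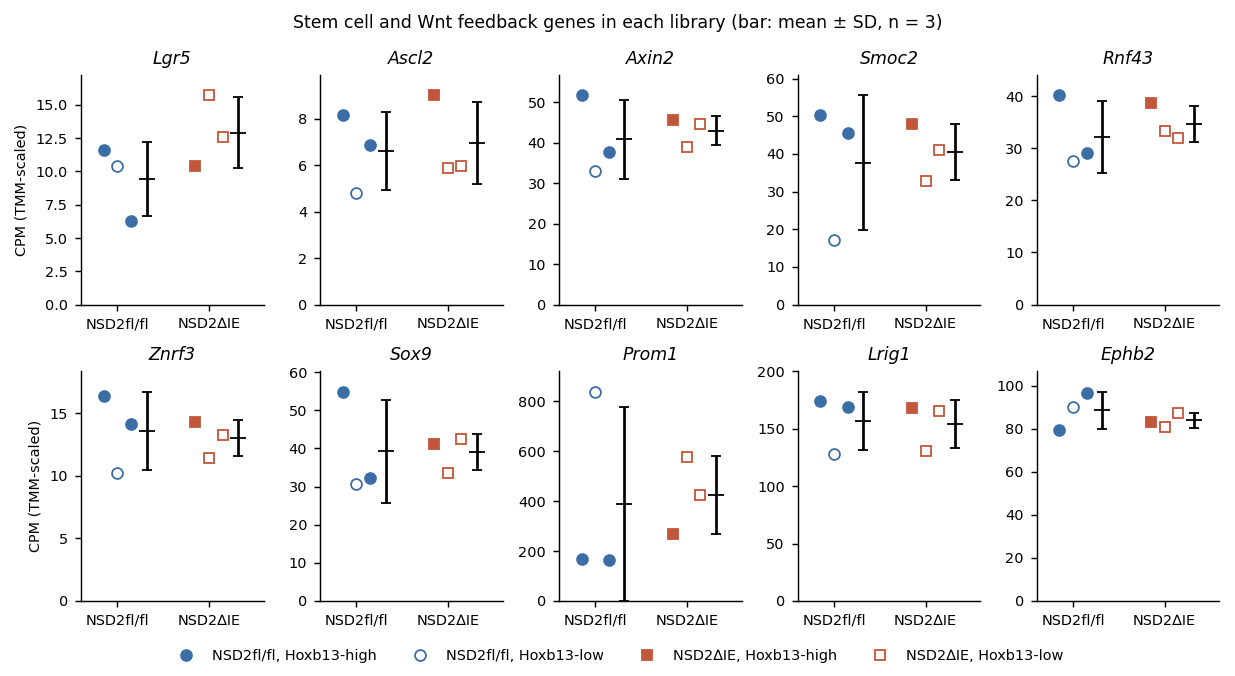
Level of each of the 10 genes (y axis, CPM scaled by TMM factors, from 0) in the 3 NSD2fl/fl libraries (circles) and the 3 NSD2∆IE libraries (squares), filled for Hoxb13-high and open for Hoxb13-low libraries, with the mean ± SD (n = 3) beside them. The groups overlap for all 10 genes, and Prom1 spans the widest range.

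The stem cell markers were described first. Lgr5 had 11.6, 10.4 and 6.29 CPM in NSD2fl/fl and 10.4, 15.7 and 12.6 CPM in NSD2∆IE. The highest value was that of NSD2∆IE replicate 2 and the lowest that of NSD2fl/fl replicate 3, while NSD2∆IE replicate 1 lay between NSD2fl/fl replicates. The group means were 9.43 ± 2.78 and 12.9 ± 2.67 CPM (SD, n = 3 each). The log2 ratio of 0.45 (SE 0.273, adjusted p = 0.594) was the largest of the 10 in size. Its 95% interval ran from -0.20 to 1.101, which includes no difference and a 2.14-fold higher level. The value stayed above 0 in all 14 alternatives, between 0.23 without NSD2fl/fl replicate 3 and 0.73 with scaling to epithelial markers, and its adjusted p was at least 0.372 in each. Ascl2 had 8.15, 4.80 and 6.85 CPM in NSD2fl/fl and 9.003, 5.88 and 5.97 CPM in NSD2∆IE. The lowest and the highest value came from one library of each genotype, and the log2 ratio was 0.07 (SE 0.274, adjusted p = 0.934). Smoc2 had 50.3, 17.1 and 45.4 CPM in NSD2fl/fl and 47.8, 32.9 and 40.9 CPM in NSD2∆IE. NSD2fl/fl replicate 2, the only Hoxb13-low library of its group, was the low library. The log2 ratio was 0.11 (SE 0.384, adjusted p = 0.931) with it and -0.24 without it. With the Hoxb13 division as a covariate, the log2 ratio of Smoc2 was 0.55.

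The Wnt feedback genes had NSD2∆IE values within those of the controls. Axin2 had 51.7, 33.0 and 37.7 CPM in NSD2fl/fl and 45.5, 39.0 and 44.5 CPM in NSD2∆IE, so that all NSD2∆IE values lay inside the range of NSD2fl/fl. The means were 40.8 ± 9.70 and 43.0 ± 3.52 CPM (SD, n = 3 each), and the log2 ratio was 0.08 (SE 0.18, adjusted p = 0.895), with a 95% interval from -0.35 to 0.51. Rnf43 had 40.2, 27.5 and 29.1 CPM in NSD2fl/fl and 38.7, 33.3 and 32.04 CPM in NSD2∆IE, again inside the NSD2fl/fl range. Its log2 ratio was 0.11 (SE 0.173, adjusted p = 0.842), with a 95% interval from -0.31 to 0.52. Znrf3 had 16.4, 10.3 and 14.1 CPM in NSD2fl/fl and 14.3, 11.5 and 13.3 CPM in NSD2∆IE. Its fitted log2 ratio of -0.06 (SE 0.205, adjusted p = 0.922) had the opposite sign to that of Rnf43, the other ligase of the pair, and was 0.0536 with library totals alone. Whether the pair differed from each other was not tested. For each of these 3 genes NSD2fl/fl replicate 1 was the highest library and NSD2fl/fl replicate 2 the lowest, so the controls bounded the range.

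Of the remaining members, Sox9 had 54.8, 30.7 and 32.2 CPM in NSD2fl/fl and 41.2, 33.6 and 42.5 CPM in NSD2∆IE. NSD2fl/fl replicate 1 was again the highest, and the log2 ratio was -0.01 (SE 0.242, adjusted p = 0.995), and 0.31 without that library. Ephb2 was the most even gene, with 79.6, 89.99 and 96.5 CPM in NSD2fl/fl and 83.2, 81.0 and 87.5 CPM in NSD2∆IE, a ratio of 1.21 between the highest and the lowest library. Its interval was the narrowest, from -0.34 to 0.18 around a log2 ratio of -0.08 (SE 0.108, adjusted p = 0.81). In this fit, NSD2∆IE levels above 1.13-fold or below 0.79-fold of NSD2fl/fl lay outside the interval. With epithelial scaling the log2 ratio was 0.20. Lrig1 had 174, 128 and 169 CPM in NSD2fl/fl and 168, 131 and 165 CPM in NSD2∆IE, with a log2 ratio of -0.02 (SE 0.168, adjusted p = 0.973). Each group held a low library, replicate 2.

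Prom1 was the exception in its spread. It had 167, 838 and 164 CPM in NSD2fl/fl and 268, 578 and 426 CPM in NSD2∆IE, a ratio of 5.12 between the highest and the lowest library. The lowest 2 values and the highest all came from NSD2fl/fl, and the mean of that group, 390 ± 389 CPM (SD, n = 3), had an SD as large as the mean. The log2 ratio of 0.12 (SE 0.678, adjusted p = 0.956) had a 95% interval from -1.49 to 1.74, which does not bound a change in either direction below 2-fold. Leaving out NSD2fl/fl replicate 2 gave a log2 ratio of 1.36 (unadjusted p = 0.00494, edgeR adjusted p = 0.325). That library was the only Hoxb13-low one of its group, so the fit without it mixes genotype with the Hoxb13 division. With the division as a covariate, the log2 ratio was -0.02. Leaving out NSD2fl/fl replicate 1 gave -0.24, and the adjusted p ranged from 0.325 to 0.997 over the 14 alternatives.

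**Figure D2:**
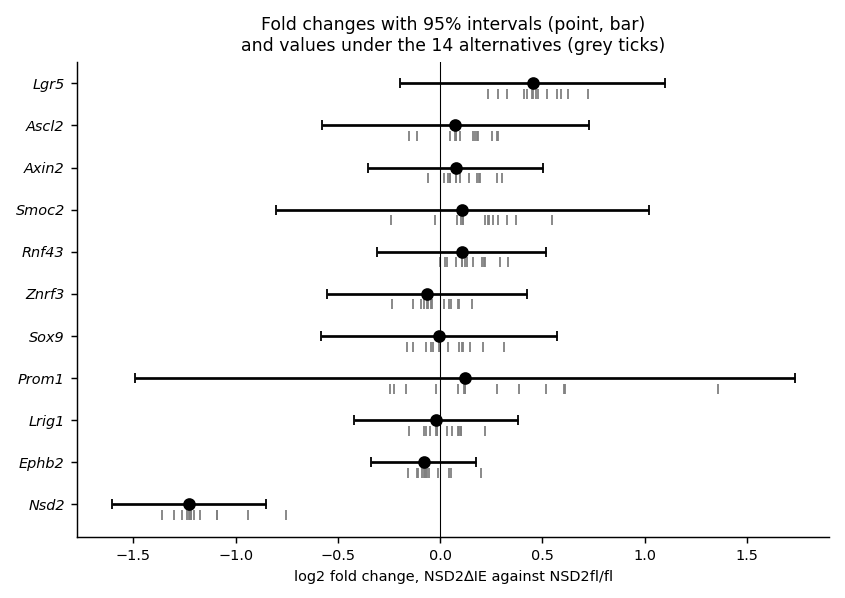
Log2 ratio of NSD2∆IE against NSD2fl/fl (x axis) for the 10 genes and for the targeted gene Nsd2, with edgeR 95% intervals (points and bars) and the values under the 14 alternatives (grey ticks). The intervals of all 10 genes include 0, that of Prom1 from -1.49 to 1.74 being the widest, and that of Nsd2 lies between -1.61 and -0.85.

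The division of the libraries by Hoxb13 separated 5 of the 10 genes without overlap, a pattern that 22.4% of all genes tested also showed. Ascl2 had 6.85 to 9.003 CPM in the Hoxb13-high libraries and 4.80 to 5.97 CPM in the Hoxb13-low libraries. Smoc2 had 45.4 to 50.3 CPM against 17.1 to 40.9 CPM, Znrf3 14.1 to 16.4 CPM against 10.3 to 13.3 CPM, and Lrig1 168 to 174 CPM against 128 to 165 CPM. These 4 genes were higher in the Hoxb13-high libraries, and Prom1 ran the other way. It had 164 to 268 CPM in the Hoxb13-high libraries and 426 to 838 CPM in the Hoxb13-low libraries. Among the latter, Prom1 was lower where Hoxb13 was higher, with 838, 578 and 426 CPM at 0.706, 4.97 and 26.2 CPM of Hoxb13, and Smoc2 was higher, with 17.1, 32.9 and 40.9 CPM. Lgr5, Axin2, Rnf43, Sox9 and Ephb2 overlapped between the libraries divided in this way. No test was made, since the division was read from the libraries and not from the labels. Of 14 other stem cell genes tested, 5 were lower without overlap in the Hoxb13-high libraries and 0 higher, unlike the 4 members above. Of 14 other Wnt targets tested, 3 were lower and 1 higher. Cd44, a cell surface receptor and Wnt target of the stem cell list, had 38.03 to 56.2 CPM in the Hoxb13-high libraries. It had 78.1 to 111 CPM in the Hoxb13-low libraries. Cdx2, a homeobox factor of intestinal identity named here after its values were seen, had 77.2 to 93.2 CPM against 242 to 305 CPM.

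**Figure D3:**
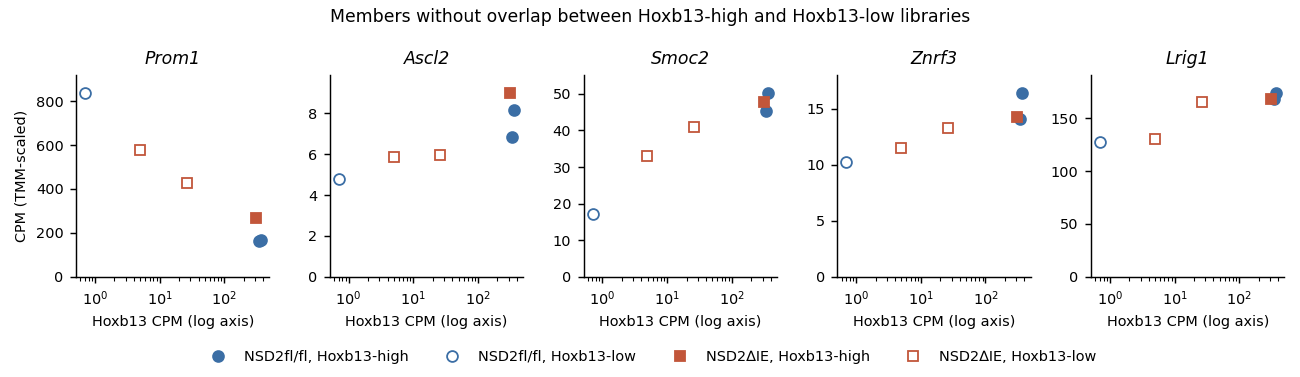
Level of Prom1, Ascl2, Smoc2, Znrf3 and Lrig1 (y axes, CPM scaled by TMM factors, from 0) against Hoxb13 (x axis, CPM, log axis) in the 6 libraries, circles for NSD2fl/fl and squares for NSD2∆IE, filled for Hoxb13-high. Prom1 is higher in the 3 Hoxb13-low libraries, 426 to 838 CPM, and the other 4 genes are lower there.

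Within the Hoxb13-high libraries, 1 NSD2∆IE against 2 NSD2fl/fl, the log2 difference of NSD2∆IE from NSD2fl/fl was 0.28 for Lgr5, 0.27 for Ascl2, 0.04 for Axin2 and 0.18 for Rnf43. Within the Hoxb13-low libraries, 2 NSD2∆IE against 1 NSD2fl/fl, it was 0.43, 0.30, 0.33 and 0.25, in the same order. No test was made, since each set held a single library of 1 genotype. The Hoxb13-low values rest on NSD2fl/fl replicate 2. In the fit of all libraries but that one, the log2 ratio was -0.11 for Ascl2, -0.059 for Axin2, -0.00053 for Rnf43 and 0.52 for Lgr5. That fit holds no Hoxb13-low NSD2fl/fl library, so it mixes genotype with the Hoxb13 division and cannot check the values within the sets. With the division as a covariate over all 6 libraries, the log2 ratios were 0.28, 0.18, 0.20 and 0.33, in the same order. Within the Hoxb13-high and the Hoxb13-low set, Ephb2 was lower in both (-0.07 and -0.10). Smoc2 had 0.0016 and 1.098, Znrf3 -0.09 and 0.26, Sox9 -0.03 and 0.30, and Lrig1 -0.03 and 0.20. Prom1 had opposite signs in the sets, 0.70 and -0.76. For comparison, Nsd2 had -1.23 in each set.

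The patterns of the members over the 6 libraries were compared as the root mean square difference of their centred log2 CPM, where 0 means the same pattern. Among the 45 pairs, Znrf3 and Lrig1 were closest (0.0796), followed by Axin2 and Rnf43 (0.0895), Axin2 and Sox9 (0.105) and Axin2 and Znrf3 (0.115). The pairs of Prom1 with each of the other members were the farthest apart, up to 1.37 for Smoc2 and Prom1. This is a description over 6 libraries, which share tissue, diet and sequencing. Among 13266 other genes with an average log2 CPM of at least 1, those nearest to Lgr5 were Rftn2 (0.0808), Mfap2 (0.101), Il7r (0.102), Zfp128 (0.106) and Nckap5l (0.108). Genes near to Axin2 included Erf (0.0298), Sh3pxd2a (0.0354), Zmym3 (0.0423) and Mccc2 (0.0439).

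To place the 10 genes within their pathway, 102 other genes were examined in lists of other stem cell genes, other Wnt targets, receptors, intracellular transducers, ligands and secreted inhibitors. Of these, 86 were tested, and 0 had an adjusted p under 0.05 in edgeR or limma, with 5 in DESeq2 (Nkd2, Fzd2, Wnt2b, Sfrp5 and Dkk2, with DESeq2 adjusted p-values of 0.0147, 0.0156, 0.0277, 0.0158 and 0.0455). DESeq2 called 2.99% of the 16418 genes to which it gave an adjusted p. At an unadjusted p under 0.05 there were 17, all beyond 0.32 in log2 ratio, 15 higher and 2 lower in NSD2∆IE. These are 17.4% and 2.33% of the tested genes, beside the 8.05% and 2.21% of all genes. Without NSD2∆IE replicate 3 the count was 9, and over all genes 675 were higher and 146 lower. Without NSD2fl/fl replicate 3 the count was 11, and over all genes 926 were higher and 448 lower. In the fit of all libraries, 1316 of all genes were higher and 361 lower. The median log2 ratio of the 86 was 0.10.

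None of the 14 tested genes of the stem cell list passed this threshold. Cd44 had a log2 ratio of 0.0029 (SE 0.447, adjusted p = 0.999). The list of other Wnt targets held 3 higher and 1 lower among 14. Nkd2 and Nkd1 encode naked cuticle proteins, which bind Dishevelled and restrain Wnt signalling. Nkd2 had 5.11, 3.39 and 7.24 CPM in NSD2fl/fl and 8.02, 15.8 and 20.9 CPM in NSD2∆IE, and Nkd1 had 11.9, 9.77 and 12.5 CPM and 13.3, 24.0 and 26.4 CPM. Both were higher in every NSD2∆IE library, and NSD2∆IE replicate 1 was the closest to the controls. Their log2 ratios were 1.505 (SE 0.416, adjusted p = 0.312) and 0.90 (SE 0.269, adjusted p = 0.323). Apcdd1, a membrane inhibitor of Wnt signalling, had 0.71 (SE 0.289, adjusted p = 0.438) with overlap between the groups. Ppard, a nuclear receptor for fatty acids, was the lower gene, with 203, 278 and 205 CPM in NSD2fl/fl and 154, 169 and 147 CPM in NSD2∆IE, a log2 ratio of -0.55 (SE 0.158, adjusted p = 0.317). Myc had -0.05 (SE 0.181, adjusted p = 0.929).

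Among 17 tested receptors, 3 were higher at this threshold and 0 lower. Fzd2 had 8.62, 6.84 and 5.89 CPM in NSD2fl/fl and 10.7, 13.8 and 15.9 CPM in NSD2∆IE, a log2 ratio of 0.92 (SE 0.22, adjusted p = 0.302). The other two were Ror2, a receptor for WNT5A, with 0.66 (SE 0.194, adjusted p = 0.317) and Fzd4 with 0.46 (SE 0.146, adjusted p = 0.341). Lgr4, a relative of Lgr5 that also binds R-spondins, had 23.9 to 46.3 FPKM in the 6 libraries, above the highest Lgr5 value of 3.43 FPKM. It had 235, 157 and 184 CPM in NSD2fl/fl and 169, 131 and 114 CPM in NSD2∆IE, with a log2 ratio of -0.48 (SE 0.206, adjusted p = 0.457) and overlap between the groups. Lgr6 had at most 7 counts in a library and was not tested.

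Of 19 transducers, 1 was higher and 1 lower. Tcf7l2, which encodes the main partner of beta-catenin in intestinal epithelium, had 61.5, 60.6 and 48.6 CPM in NSD2fl/fl and 51.3, 36.4 and 35.0 CPM in NSD2∆IE, a log2 ratio of -0.48 (SE 0.182, adjusted p = 0.417) with overlap between the groups. Pygo1, a nuclear cofactor of beta-catenin, had 1.03 (SE 0.424, adjusted p = 0.441). Ctnnb1, which encodes beta-catenin, had -0.21 (SE 0.234, adjusted p = 0.766).

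The ligand list held 4 higher and 0 lower among 14 tested genes. Wnt2b had 24.3, 18.8 and 15.4 CPM in NSD2fl/fl and 33.3, 34.6 and 30.5 CPM in NSD2∆IE, without overlap and with a log2 ratio of 0.75 (SE 0.181, adjusted p = 0.302). Rspo3, an R-spondin, had 4.78, 3.45 and 5.47 CPM and 7.59, 7.06 and 7.59 CPM, a log2 ratio of 0.70 (SE 0.217, adjusted p = 0.333). Rspo2 had from 7 to 52 counts per library and a log2 ratio of 1.52 (SE 0.492, adjusted p = 0.353). The secreted inhibitors held 4 higher and 0 lower among 8, of which Sfrp5 had a log2 ratio of 1.33 (SE 0.337, adjusted p = 0.303), Sfrp1 0.51 (SE 0.151, adjusted p = 0.323) and Dkk2 1.85 (SE 0.573, adjusted p = 0.333).

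**Figure D4:**
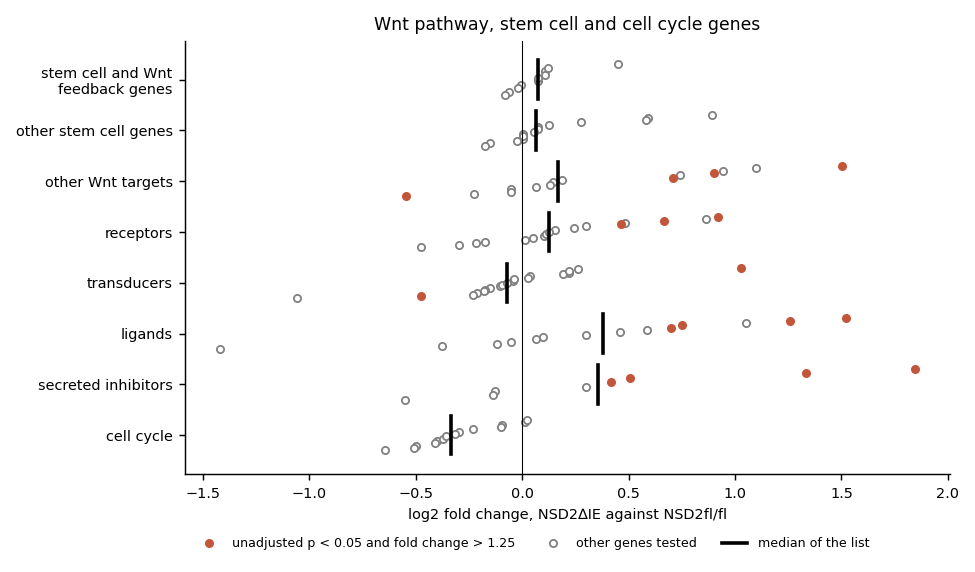
Log2 ratio of NSD2∆IE against NSD2fl/fl (x axis) for each tested gene of the lists named on the y axis, with the list medians as black bars and genes at an unadjusted p under 0.05 and a log2 ratio beyond 0.32 in red. The 10 stem cell and Wnt feedback genes lie between -0.08 and 0.45 with 0 red points, and the ligand and secreted inhibitor lists hold 4 red points each.

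The ephrin and EGF receptor partners of EPHB2 and LRIG1 were also read. Of 7 ephrin and Eph receptor genes tested, 0 passed the unadjusted threshold, and of 5 EGF receptor and LRIG genes, Egfr alone passed, with a log2 ratio of -0.37 (SE 0.136, adjusted p = 0.401). Of 14 cell cycle genes, 0 passed in either direction, with a median log2 ratio of -0.34. Mki67, the proliferation marker, had 114, 172 and 226 CPM in NSD2fl/fl and 85.2, 140 and 162 CPM in NSD2∆IE, so replicate 1 was the lowest in each group, and its log2 ratio was -0.40 (SE 0.315, adjusted p = 0.678).

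Markers of other tissue layers were read beside the lists above, and none of them had an adjusted p under 0.05 in edgeR (at least 0.302 in the muscle, nerve, adipocyte and epithelial lists). The summed level of 8 smooth muscle markers was 1416 to 4045 CPM in NSD2fl/fl and 5029 to 10765 CPM in NSD2∆IE, with 7 of 8 higher at the unadjusted threshold. That of 9 enteric neuron and glia markers was 47.8 to 78.8 CPM and 99.9 to 138 CPM, with 9 of 9 higher, and that of 7 adipocyte markers was 36.4 to 50.1 CPM and 55.2 to 129 CPM, with 2 of the 6 tested higher. The adipocyte markers Adipoq and Plin1 had 0 counts in NSD2fl/fl replicate 2. Cidec and Lpl, of the same list, had 18.6 and 16.1 CPM in that library, where the summed level was 50.1 CPM. Both were lower without overlap in the Hoxb13-high libraries, so this sum also follows the Hoxb13 division in part. The summed level of 10 epithelial markers was 13393 to 20567 CPM in NSD2fl/fl and 12297 to 14314 CPM in NSD2∆IE, overlapping, with 1 of 10 lower, and Epcam had a log2 ratio of -0.26 (SE 0.183, adjusted p = 0.639). The fibroblast, endothelium and immune sums overlapped between the groups. The fibroblast sum was 1258 to 1761 CPM in NSD2fl/fl and 1439 to 1620 CPM in NSD2∆IE. At the unadjusted threshold, 2 of 7 fibroblast markers and 1 of 7 endothelium markers were higher, and 0 of 8 immune markers passed. NSD2∆IE replicate 1, the only Hoxb13-high library of its group, had the lowest muscle, nerve and adipocyte sums there. Among the named higher Wnt pathway genes, it was its group's lowest for Nkd1, Nkd2, Apcdd1, Fzd2, Ror2, Fzd4, Pygo1, Rspo2, Sfrp1 and Dkk2. It was not the lowest for Wnt2b, Rspo3 or Sfrp5. The part of these markers, or of the Hoxb13 division, in the Wnt pathway values was not tested. With counts scaled to the summed epithelial markers in place of the library, the median log2 ratio of the 10 members was 0.28 beside 0.23 for all genes, and 0 of the 10 had an unadjusted p under 0.05.

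**Figure D5:**
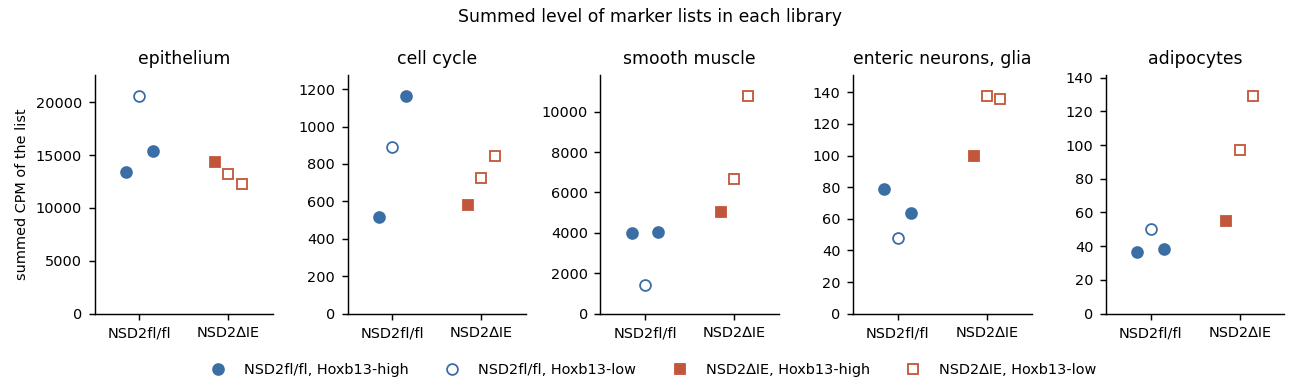
Summed CPM (y axes, from 0) of marker lists for epithelium, cell cycle, smooth muscle, enteric neurons and glia, and adipocytes in the 3 NSD2fl/fl (circles) and 3 NSD2∆IE libraries (squares), filled for Hoxb13-high. The smooth muscle sum is 1416 to 4045 CPM in NSD2fl/fl and 5029 to 10765 CPM in NSD2∆IE, while the epithelial and cell cycle sums overlap.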

How the data were processed

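RNA sequencing of colon from 3 NSD2fl/fl and 3 NSD2∆IE mice was analysed, with groups and replicate numbers from the labels. The authors deposited a whole-number read count and an FPKM value per gene symbol for each library. The submitters' processing notes name fastp, HISAT2, HTSeq, R 3.2.0 and mm10, with no roles. Neither annotation nor strandedness was given in the sources used here, so overlapping and antisense genes may share reads. The gene length implied by count and FPKM was the same in all libraries for each member. The 10 genes and all lists were chosen with earlier results of these data known.

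Counts were fitted with edgeR 4.0.16 in R 4.3.3 (filterByExpr, TMM factors, glmQLFit and glmQLFTest, two-sided, no covariate) over 16347 genes with Benjamini-Hochberg adjustment. SEs were derived from the F statistic, and 95% intervals use the moderated degrees of freedom. The labels give no animal identifiers, so p-values measure the spread between these samples. No 2 libraries were duplicates (chi-square per degree of freedom at least 35.5). Precision was limited by the spread between libraries (biological coefficient of variation 0.311). The fit was tested on simulated data.

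Named genes were the 10 members, Nsd2, 9 fixed context genes, up to 3 genes of smallest p per context list and direction at an unadjusted p under 0.05 and a log2 ratio beyond 0.32, and the 5 genes nearest in pattern to Lgr5 and to Axin2, of which 1 is not reported here. Log2 CPM used a prior count of 2. The alternatives were RLE factors, library totals alone, scaling to summed epithelial markers, DESeq2 1.42.0 on all genes, limma 3.58.1 on log2(FPKM + 1), no filter on low counts, the first principal component split as a covariate, the replicate number as a block, and leaving out each library.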

Additional observations from a re-analysis of the deposited data

How the results depend on the processing

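No alternative gave any of the 10 members an adjusted p under 0.05. One gave 1 member at the unadjusted threshold, Prom1 without NSD2fl/fl replicate 2, the only Hoxb13-low library of its group. The median of the members ranged from -0.09 to 0.27 when single libraries were left out. Directions near 0 reversed. With library totals alone, which moved the median of all genes by 0.127, Znrf3 was 0.0536, Sox9 0.11, Lrig1 0.10 and Ephb2 0.0523. With epithelial scaling, which moved it by 0.274, they were 0.16, 0.21, 0.22 and 0.20, and with log2(FPKM + 1), which moved it by 0.102, 0.0457, 0.15, 0.10 and 0.0459, in the same order. With the principal component split as covariate, Znrf3 was 0.0857, Sox9 0.11, Lrig1 0.0917 and Prom1 -0.0209. Without one library each, log2 ratios ranged from 0.23 to 0.62 for Lgr5, -0.15 to 0.25 for Ascl2, -0.059 to 0.28 for Axin2, -0.24 to 0.37 for Smoc2, -0.00053 to 0.29 for Rnf43, -0.23 to 0.0905 for Znrf3, -0.16 to 0.31 for Sox9, -0.24 to 1.36 for Prom1, -0.15 to 0.0879 for Lrig1, -0.15 to -0.01 for Ephb2 and -1.36 to -1.09 for Nsd2.

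Of the counts over all genes, 5 had an adjusted p under 0.05, all of them sex-linked (Xist and 4 Y-linked genes), with 3 to 5 without one library each and 491 with DESeq2, Nsd2 among them with a log2 ratio of -1.23 and an adjusted p of 1.14e-06. At the threshold of the study, 361 were lower, with 142 for library totals alone, 62 for epithelial scaling, 108 for log2(FPKM + 1), 607 without the filter, 543 with the principal component split, 602 with the replicate block and 146 to 747 without one library each. The 1316 higher genes ranged from 675 to 1720 without one library each. The 17 Wnt pathway genes ranged from 9 to 21 without one library each, and were 22 with the principal component split. The causes were not tested. The replicate numbers did not pair all libraries, with correlations of deviations of 0.501, 0.643 and -0.166 for replicates 1, 2 and 3. Both libraries of replicate 1 were Hoxb13-high, both of replicate 2 were Hoxb13-low, and those of replicate 3 were divided. With the number as a replicate block, Sox9 was 0.0383 and no member passed.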
